A study of Mus musculus with 12 samples.

Results

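The cytosolic ribosomal protein genes were described here as a group that includes Rpl22, the subunit whose tagged form was used to pull down the ribosomes. They were chosen by gene symbol from the deposited count table and by a minimum of 15 reads summed over the 12 libraries. Symbols started with Rpl or Rps and a number, or were the stalk proteins Rplp0 to Rplp2 or Rpsa. Left out were S6 kinases, binding proteins, pseudogene names and names ending in l1 other than Rpl22l1, so that Rpl7l1 was dropped. The rule gave 82 of the 24079 genes in the table, and 17823 genes reached the minimum in all. Of 85 rows with a fitting symbol, Rpl26 and Rps27rt had 0 reads and Rpl10l had 2 reads, below the minimum, and just above it were Rpl39l with 39, Rpl3l with 104, Rpl30 with 157, Rps27 with 232 and Rpl34 with 330 reads. The rule leaves out Fau and Gnb2l1 (Rack1), which also encode parts of the cytosolic ribosome.

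RNA bound to HA-tagged ribosomes of mouse CA1 pyramidal cells was sequenced from 6 wild-type (Fmr1+/y) and 6 Fmr1-/y libraries, each a pool of whole hippocampi from 4 to 6 mice. All animals, controls included, were males aged 2 to 6 months that carried the RiboTag allele of Rpl22 and a Wfs1-CreERT2 BAC transgene, and all received tamoxifen (100 mg/kg on 3 days) and were used 1 week later. The Wfs1 promoter sets which cells are tagged, so a library reports on Wfs1-expressing cells plus any untagged RNA that came down with them. Values are CPM (counted reads scaled to a common library size) after TMM scaling, with SDs over 6 libraries, and they are levels of mRNA on ribosomes, not of ribosomal protein. Fewer ribosome-bound copies per cell and fewer tagged cells cannot be told apart in such pools.

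Depth was 39400980 to 65565479 counted reads per library. Reads of Fmr1 numbered 1971 to 2608 with the wild-type genotype and, with the Fmr1-/y genotype, 0 in 5 pools and 1 in the sixth. The CA1 marker Wfs1 was at 942 to 1434 CPM. Markers of other cells were present as well, and Ttr of the choroid plexus was at 5927 to 16437 CPM.

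The cytosolic ribosome joins a small subunit, which reads the mRNA, to a large subunit, which forms the peptide bond. Most of its proteins come each from a gene of their own, and the cell keeps their output in balance, in part because their mRNAs carry a 5′ terminal oligopyrimidine (TOP) tract through which mTORC1 signalling sets how much they are translated. Neurons also place ribosomes in dendrites, and FMRP, the product of Fmr1, binds ribosomes and many neuronal mRNAs.

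The tag itself sits at the end of the Rpl22 coding sequence. In the RiboTag allele Cre removes the wild-type exon 4 and brings in a copy that ends in HA, and this exon is chr4:152332280-152334071 of the reference (mm10, plus strand). The last 60 bases of the coding sequence, at chr4:152332365-152332424, are shown because the HA codons precede the stop codon, which is in capitals.
Rpl22 coding end: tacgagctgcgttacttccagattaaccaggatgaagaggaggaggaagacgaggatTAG

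A TOP tract is read from the start of transcription. Each line below gives 15 bases before and 15 bases from a RefSeq start (GRCm38.p6), with the pyrimidine run at the start in capitals, for Rps6 of the small subunit, for Rps15a, whose levels set it apart below, for Rpl27a, whose run follows a start annotated at T, and for Rpl22 and its paralog Rpl22l1, where no run begins at the annotated start.
Rps6 (chr4:86857353-86857382, minus strand): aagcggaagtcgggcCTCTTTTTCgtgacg
Rps15a (chr7:118116133-118116162, minus strand): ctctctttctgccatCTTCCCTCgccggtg
Rpl27a (chr7:109519180-109519209, plus strand): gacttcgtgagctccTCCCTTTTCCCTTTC
Rpl22 (chr4:152325711-152325740, plus strand): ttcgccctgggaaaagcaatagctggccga
Rpl22l1 (chr3:28805493-28805522, plus strand): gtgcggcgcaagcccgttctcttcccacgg
A C at the start followed by at least 4 further pyrimidines was annotated for 13 of the 61 members in the RefSeq table of starts (21.3%), against 812 of all 27018 genes in it (3.01%). Annotations differ on these starts. The RefSeq starts shown lie 41 to 141 bases from those of the GENCODE transcripts used for length, with Rpl22 the farthest, so that its window lies outside the exons of that transcript, and RefSeq has a second Rpl22 start at chr4:152324436, also without a run. A missing run therefore says only that these letters do not begin at this position.

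The 300 bases around the start, 250 before and 50 after, were also searched on both strands for CCGGAAG, a site that ETS transcription factors bind. It was found for 25 of the 61 members (41%) and for 9.93% of all genes in the table. Its reverse complement CTTCCGG begins with pyrimidines and can overlap a TOP tract. Rpl11 and Rpl31, of the large subunit, are shown with the motif in capitals, since in both it lies within the 15 bases after the start.
Rpl11 (chr4:136053379-136053408, minus strand): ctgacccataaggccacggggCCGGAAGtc
Rpl31 (chr1:39367836-39367865, plus strand): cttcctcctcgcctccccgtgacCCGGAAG

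Rpl22 mRNA did not differ between genotypes beyond the spread of the libraries. Its level in wild-type libraries was 92.3 CPM at the lowest, 100.3 at the median and 106 at the highest, and in Fmr1-/y libraries 92.7, 105 and 116 CPM. Fmr1-/y replicates 3 and 4 were the highest of all and replicate 1 of each genotype the lowest, and the ranges overlapped. The means were 100.1 ± 4.57 and 104 ± 8.78 CPM (SD, n = 6), a log2 fold change (Fmr1-/y over wild-type, as for all below) of 0.06 with a standard error of 0.063 and an interval of -0.08 to 0.19 (95%, edgeR quasi-likelihood test, adjusted p = 0.899). The reads count tagged and untagged Rpl22 mRNA together, since they are summed per gene.

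Across the group, 0 of 82 members had an adjusted p under 0.05 in edgeR, where 0.0224% of all genes tested did. At an unadjusted p under 0.05, 1 member was higher in Fmr1-/y libraries (4.29% of all genes were) and 0 were lower (3.67% of all genes were). DESeq2 also called 0 members at an adjusted p under 0.05, where it called 0.471% of all genes, gave 1 member an unadjusted p under 0.05, and left 4 members without an adjusted p. The CPM ranges of the genotypes overlapped for all 82 members, while they were apart in the higher direction for 0.213% and in the lower direction for 0.41% of all genes. Among the 77 members above 1 CPM, the 95% interval of the log2 fold change lay between -0.29 and 0.48 in every case, with a median standard error of 0.080.

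**Figure D1:**
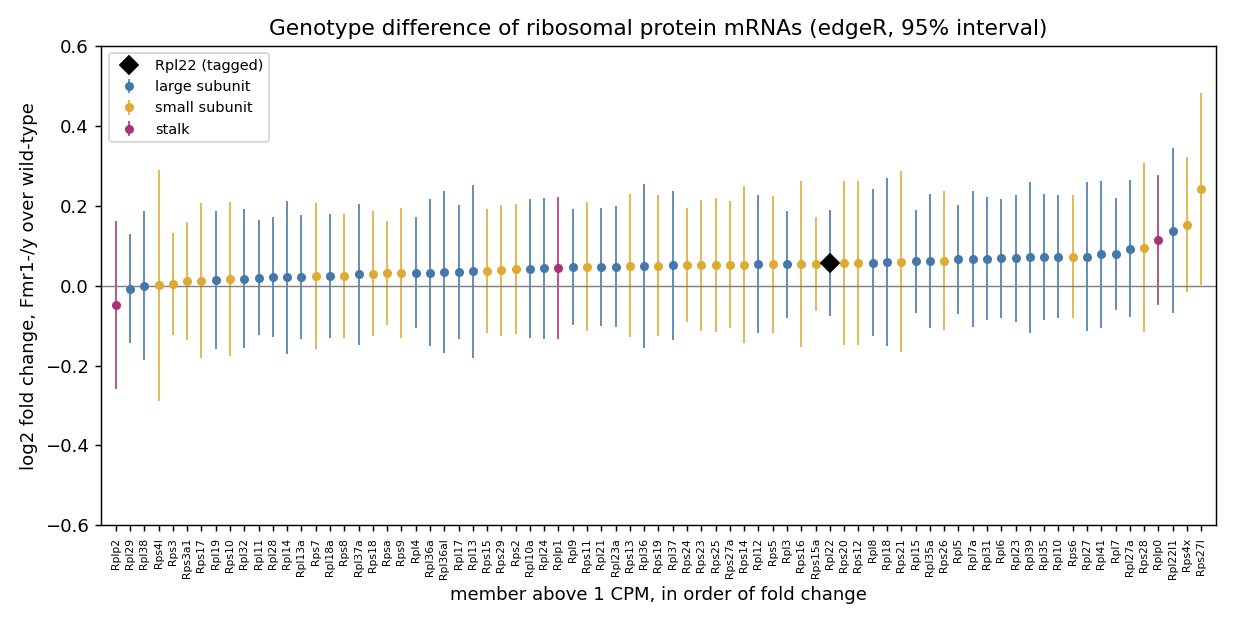
Log2 fold change (Fmr1-/y over wild-type, vertical axis) of the 77 ribosomal protein mRNAs above 1 CPM, in order of size, with 95% intervals from edgeR as bars and colours for large subunit, small subunit and stalk. All but 3 points lie above 0, every interval except that of Rps27l crosses 0, and Rpl22 (diamond) sits among the others at 0.06.

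The signs leaned upward by a small amount. The log2 fold change was above 0 for 76 members and below 0 for 6, against 51.4% above 0 of all genes, with a median of 0.050 against 0.0042. All 33 small subunit members and 41 of 46 large subunit members were above 0, with medians of 0.051 and 0.049, and so were 2 of the 3 stalk proteins. These counts include members under 1 CPM, namely Rpl30, Rpl34 and Rpl39l below 0 and Rps27 and Rpl3l above 0. The subunits are therefore not contrasted by them. The members took 1.12% ± 0.083 of the counted reads in wild-type and 1.18% ± 0.076 in Fmr1-/y libraries (SD, n = 6), with ranges of 1.0% to 1.22% and 1.08% to 1.26% that overlapped. Members move together between libraries, as described below, so the 82 signs are not 82 separate observations.

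Some marker lists of other cells leaned with genotype, without a gene past the threshold after adjustment. All 10 astrocyte markers had a log2 fold change above 0 and 7 of them an unadjusted p under 0.05, with a summed level of 1422 to 1850 CPM in wild-type and 1630 to 2558 CPM in Fmr1-/y libraries. The same held for 10 of 10 endothelial markers, 7 with an unadjusted p under 0.05, at 93.2 to 129 and 110 to 164 CPM in sum, and for 10 of 10 choroid plexus markers, 4 with such a p, at 7475 to 12996 and 8895 to 18849 CPM. Oligodendrocyte markers were below 0 in 9 of 10 cases, 2 with such a p, at 1167 to 1747 and 1047 to 1583 CPM. The 6 CA1 markers were all below 0, 2 with such a p, at 8275 to 10235 and 8020 to 9487 CPM. Other lists had no common direction, with 7 of 10 microglia markers, 4 of 10 interneuron markers and 4 of 10 markers of dentate gyrus, CA2 and CA3 above 0. No marker was at 0 in any library, and the part of these cells in the lean of the ribosomal protein mRNAs was not tested.

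The small subunit held the member with the smallest p. Rps27l, a paralog of Rps27, was at 10.9, 13.5 and 18 CPM (lowest, median, highest) in wild-type and 14.3, 16.2 and 18.6 CPM in Fmr1-/y libraries, with a log2 fold change of 0.24 ± 0.11 (SE, unadjusted p = 0.0497, edgeR adjusted p = 0.625). Wild-type replicates 1 and 4 lay within the Fmr1-/y range, so the ranges overlapped. Rps4x, the X-linked gene for the S4 protein, was at 159, 176 and 201 CPM in wild-type and 166, 206 and 223 CPM in Fmr1-/y libraries, with a log2 fold change of 0.15 ± 0.080 (SE, adjusted p = 0.685). Its lowest Fmr1-/y libraries, replicates 3 and 4, lay within the wild-type range. Rps4l, a related gene annotated in RefSeq as a transcribed pseudogene, had a log2 fold change of 0.00075 ± 0.14.

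Rps6, the S6 protein that is phosphorylated downstream of mTORC1, was at 245, 255 and 298 CPM in wild-type and 244, 286 and 308 CPM in Fmr1-/y libraries. The ranges overlapped nearly in full, with a log2 fold change of 0.07 ± 0.073 (adjusted p = 0.883). Rpsa, the laminin receptor protein of the small subunit, gave 0.03 ± 0.062, and Rps3, which lies at the mRNA entry site, gave 0.0037 ± 0.060.

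Among large subunit proteins, Rpl22l1, the paralog of Rpl22, had the smallest p. Its level was 26.3, 30.2 and 37.1 CPM in wild-type and 28.1, 33.8 and 39.8 CPM in Fmr1-/y libraries, with a log2 fold change of 0.14 ± 0.098 (adjusted p = 0.803). Replicate 1 was the highest library of each genotype, and the ranges overlapped. Rpl22 and Rpl22l1 therefore had the same sign, and neither differed beyond the spread of the libraries. Rpl27a and Rpl7 had log2 fold changes of 0.09 ± 0.081 and 0.08 ± 0.066 (adjusted p = 0.848 and 0.836). Rpl3, which lines the peptidyl transferase centre, and Rpl4, at the wall of the exit tunnel, had the highest CPM of all members and gave 0.05 ± 0.064 and 0.03 ± 0.066. Rpl9 and Rpl19 gave 0.05 ± 0.069 and 0.01 ± 0.082. The only large subunit members above 1 CPM with a sign below 0 were Rpl29 at -0.0074 ± 0.065 and Rpl38 at -0.00022 ± 0.089.

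The stalk proteins Rplp0, Rplp1 and Rplp2, which recruit elongation factors, did not share a sign. Rplp0 was at 96.1, 99.2 and 121 CPM in wild-type and 92.7, 115 and 125 CPM in Fmr1-/y libraries, with a log2 fold change of 0.11 ± 0.077 (adjusted p = 0.790). Rplp2 was at 58.9, 67.4 and 85.7 CPM in wild-type and 49.7, 70.3 and 72.0 CPM in Fmr1-/y libraries, with a log2 fold change of -0.05 ± 0.10 (adjusted p = 0.953), the lowest of the 77. Its lowest library was Fmr1-/y replicate 4 and its highest was wild-type replicate 1. Rplp1 gave 0.04 ± 0.084.

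Other pairs of paralogs held no member past the threshold. Rpl36a and Rpl36al, which encode nearly the same protein, gave 0.03 ± 0.088 and 0.03 ± 0.096. Rpl10 and Rpl39, both on the X chromosome, gave 0.07 ± 0.073 and 0.07 ± 0.089. The tissue-restricted paralogs Rpl3l, of muscle and heart, and Rpl39l, of testis, were near the limit of detection, with 0 to 21 and 0 to 14 reads per library. Rpl3l stood at 0.075 to 0.22 CPM in wild-type and 0 to 0.45 CPM in Fmr1-/y libraries, and Rpl39l at 0 to 0.24 and 0 to 0.30 CPM. No fold is read from either.

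**Figure D2:**
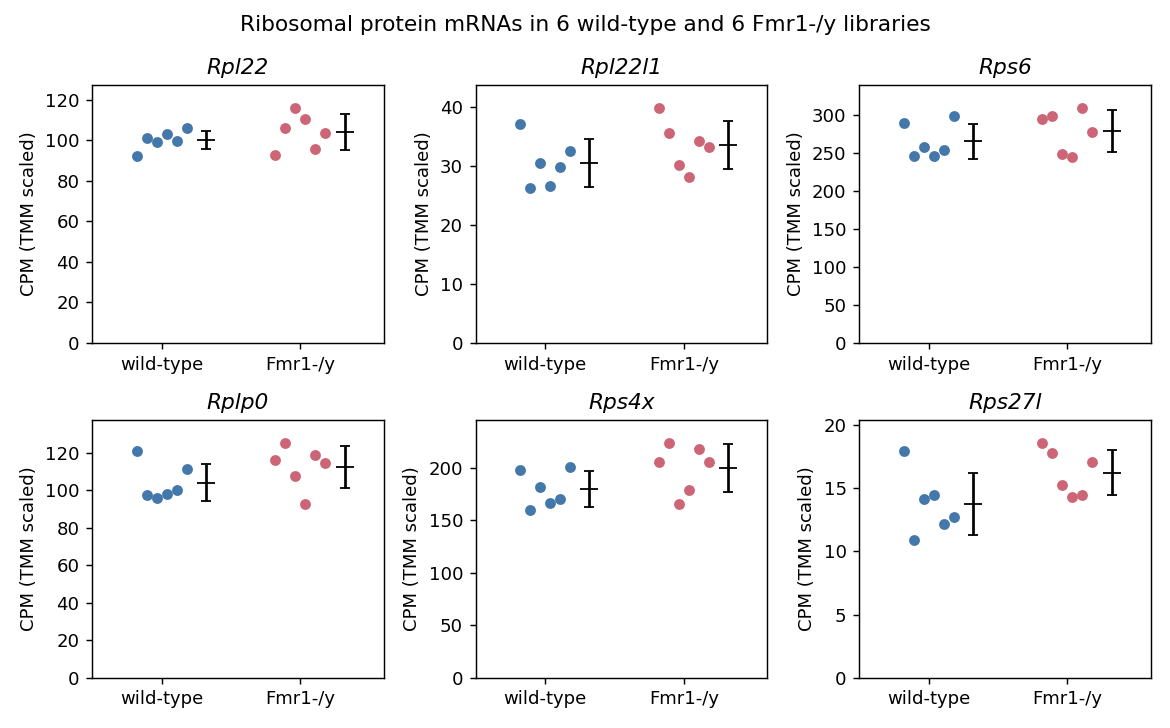
Level in CPM (vertical axis, from 0) of Rpl22, Rpl22l1, Rps6, Rplp0, Rps4x and Rps27l in each wild-type (blue) and Fmr1-/y (red) library, with the mean and SD over 6 libraries in black. In each panel the ranges of the genotypes overlap.

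Gene lists near the ribosome held no gene past the threshold after adjustment. Of 23 other RNAs listed as having TOP tracts, 20 had a log2 fold change above 0 with a median of 0.033, and 0 of 23 had an unadjusted p under 0.05. Their tracts were not checked here, and Gas5, Snhg1 and Snhg8 among them are noncoding. The list includes the elongation factors Eef1a1 (0.03) and Eef2 (0.0019) and the poly(A) binding protein Pabpc1 (-0.11). Fau and Gnb2l1, also on it and ribosomal proteins outside the symbol rule, gave 0.03 and 0.06. Of 77 mitochondrial ribosomal proteins, 58 were above 0 with a median of 0.048, and 1 had an unadjusted p under 0.05. This was Mrps6, at 18.1 to 22.2 CPM in wild-type and 23.1 to 29.9 CPM in Fmr1-/y libraries, with a log2 fold change of 0.37 ± 0.081 (unadjusted p = 0.000267, edgeR adjusted p = 0.181), named here after its values were seen. Its transcript shares 159 bases of exon with Slc5a3 on the same strand, so reads of the pair may be uncertain. Of 77 factors of ribosome biogenesis, which act in the nucleolus, 41 were above 0 and 36 below, with a median of 0.0032 and 0 with an unadjusted p under 0.05. Npm1 is counted both here and among the RNAs with TOP tracts.

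The larger variation among ribosomal protein mRNAs lay between libraries of the same genotype. After each genotype's mean was subtracted on the log2 CPM scale, 69 of the 82 members had a Pearson r over 0.8 with the mean of the other members over the 12 libraries, and the median r between pairs of the 77 members above 1 CPM was 0.85. Wild-type replicates 1 and 6 had 76 of the 77 above their genotype's mean, and wild-type replicate 2 had 76 of 77 below it. Fmr1-/y replicates 3 and 4 had 73 and 74 of 77 below, and Fmr1-/y replicate 2 had 75 above. The mean deviation over the 82 members ran from -0.20 in Fmr1-/y replicate 4 to 0.19 in wild-type replicate 1 on the log2 scale, which exceeds the median difference of 0.050 between genotypes. These values share each library's depth and scaling and are given as a description.

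Rpl22 did not follow the group. It was the only member with a negative correlation with the others (Pearson r = -0.46, Spearman's rho = -0.41, n = 12, and r = -0.24 without the 2 libraries farthest from the median). In wild-type replicate 2 and Fmr1-/y replicates 3 and 4, where the members' median deviations were -0.17, -0.14 and -0.19, Rpl22 had the highest deviation of the 77, at 0.016, 0.16 and 0.092. In replicate 1 of each genotype, where the medians were 0.18 and 0.053, Rpl22 had the lowest, at -0.12 and -0.16. In wild-type replicate 6 and Fmr1-/y replicate 2, Rpl22 had the same sign as the group, at 0.082 and 0.034 against medians of 0.17 and 0.13. It also did in wild-type replicates 3 and 5, at -0.013 and -0.0092 against -0.015 and -0.039. In wild-type replicate 4 and Fmr1-/y replicates 5 and 6 the sign was opposite for Rpl22. Its paralog Rpl22l1 followed the other members (r = 0.87), as did Rps6 (r = 0.87). Rps15a (r = 0.18) and Rpl29 (r = 0.51) were the other members above 1 CPM with r under 0.6, and they are named for this.

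**Figure D3:**
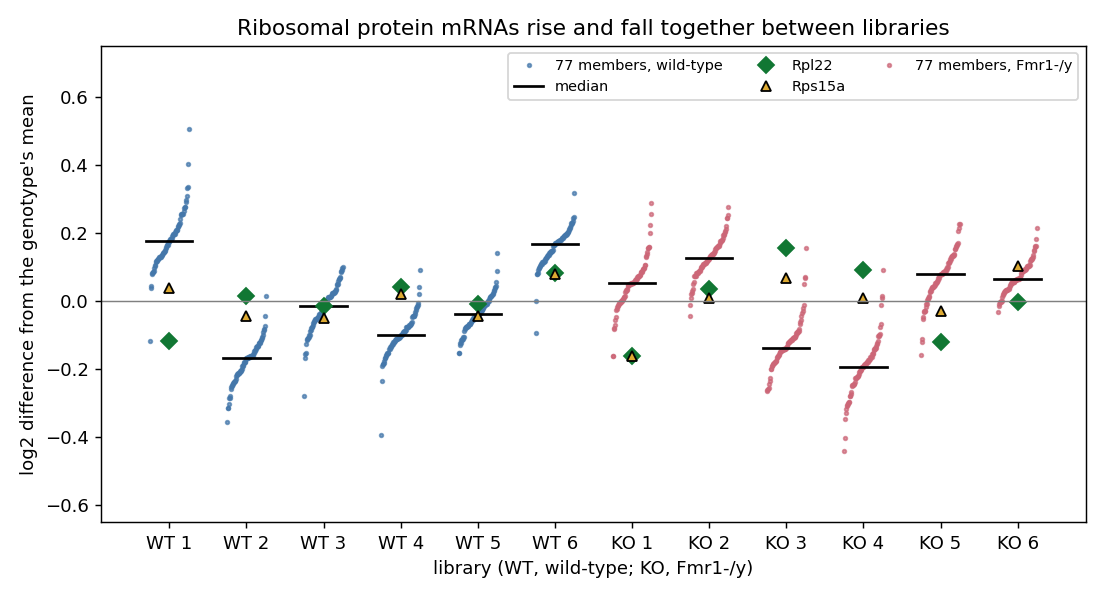
Log2 difference of each ribosomal protein mRNA above 1 CPM from its genotype's mean (vertical axis) in the 12 libraries, sorted within a library, with the median as a bar and Rpl22 and Rps15a marked. Members shift together from about -0.19 to 0.18 at the median, while Rpl22 is the lowest point in replicate 1 of each genotype and the highest in WT 2, KO 3 and KO 4.

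Genes outside the group followed the members' mean to a degree that varied with the length of their transcripts. Among 10098 other genes above 8 CPM, the median r with the members' mean fell from 0.86 for transcripts of up to 600 bases (73 genes) to 0.77 for 601 to 1000 bases, 0.29 for 2001 to 3000 bases and -0.45 for those over 5000 bases (2239 genes). Ribosomal protein transcripts are short, with a median of 831.5 bases. Members of up to 600, 601 to 1000 and 1001 to 2000 bases had a median r of 0.90, 0.92 and 0.90 with the other members. Other genes of 1001 to 2000 bases had 0.60, so members of that length followed the group more closely. The 2 members of 2001 to 3000 bases had 0.20, below other genes of that length. In each library, the slope of the other genes' deviation on log2 length ran from -0.092 per doubling of length in wild-type replicate 1 to 0.097 in Fmr1-/y replicate 4, and it followed the members' mean deviation closely (Pearson r = -0.93, rho = -0.97, n = 12). Depth followed that deviation less (r = 0.45, rho = 0.59). So did Rn45s (r = 0.14, rho = 0.24), a precursor of ribosomal RNA that ran from 4356 to 40232 CPM, and Ttr (r = -0.18, rho = -0.22).

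The 4 members with transcripts over 2000 bases in the annotation did not share a pattern. Rpl22 (2051 bases) and Rps15a (5179 bases) departed from the group, while Rpl5 (2045 bases, r = 0.86) and Rps20 (3706 bases, r = 0.89) followed it. Rpl29, which departed in part, has a transcript of 733 bases. Which transcript end the cells used was not measured.

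**Figure D4:**
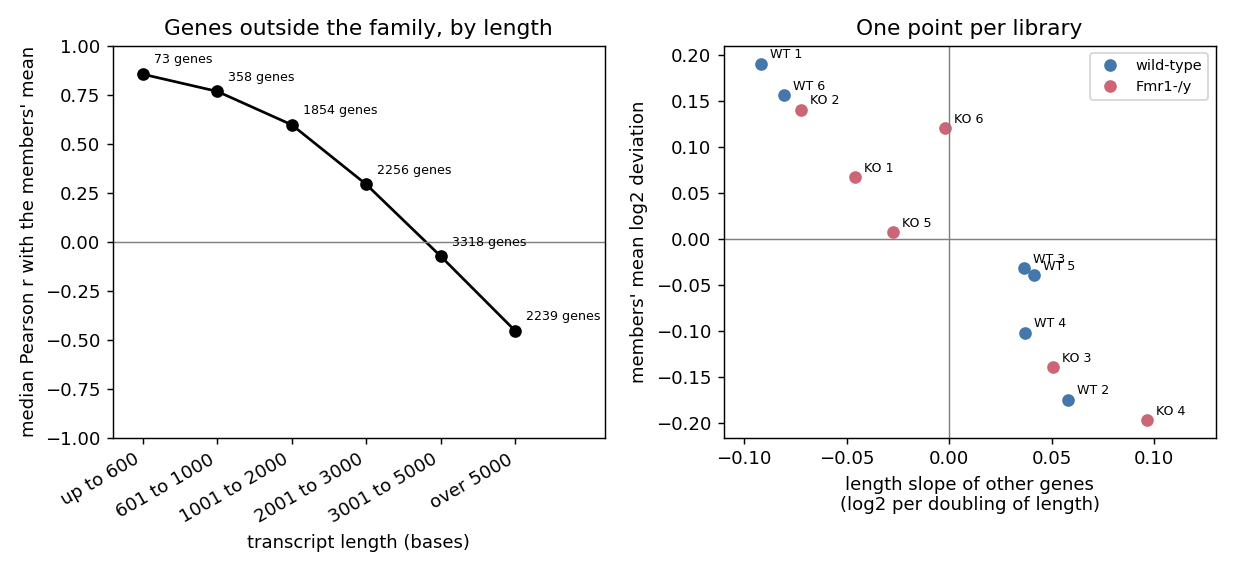
Left, median Pearson r of genes outside the group with the mean of the ribosomal protein mRNAs (vertical axis), by transcript length in bases, falling from 0.86 to -0.45. Right, the members' mean log2 deviation (vertical axis) against the length slope of other genes (horizontal axis), 1 point per library, from wild-type replicate 1 at the upper left to Fmr1-/y replicate 4 at the lower right.

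Log2 fold changes of other genes between genotypes also varied with transcript length. Other genes above 8 CPM with transcripts of up to 600 bases had a median log2 fold change of 0.062, with 76.7% above 0, those of 601 to 1000 bases 0.041, and those over 5000 bases -0.053, with 30.4% above 0. Each library's length trend among other genes was then removed, a step added after the data were seen. In that fit 46 members were above 0 and 36 below, with a median of 0.0048 against 0.0068 for all genes. The trend comes from genes whose fold changes vary with length, so its removal also takes out a genotype difference shared by short transcripts. Whether length or genotype underlies the lean of the members was not tested. The SD of the members' mean deviation over the 12 libraries fell from 0.14 to 0.035 on the log2 scale, and the median r between pairs from 0.85 to 0.19. The correlation of Rpl22 with the other members was then -0.45, but it no longer stood alone, since 16 of the 82 members had an r under 0. Rpl23a was lowest at -0.76, and Rps6, which had followed the group, was at -0.24. Rpl22 had a log2 fold change of 0.04 in this fit (adjusted p = 0.946). Rps27l and Rps4x had unadjusted p of 0.0446 and 0.0402 in this fit, with log2 fold changes of 0.19 and 0.11, and 0 members passed after adjustment (edgeR, smallest adjusted p = 0.584).

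Among the genes outside the group whose deviations were most like the members' mean over the 12 libraries were Uqcrq, Eif3k, Sub1, BC031181, H2-Ke2, Dctn6, Eef1b2, Cox6c and Hnrnpab, with r from 0.978 to 0.989. Eef1b2 and Eif3k encode translation factors, and Uqcrq and Cox6c encode small subunits of the respiratory chain. The log2 fold changes of the listed genes between genotypes ran from -0.05 for Sub1 to 0.08 for Cox6c. Their annotated transcripts were not all short, and ran from 503 bases for Cox6c to 3372 bases for Sub1.

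Levels within the ribosome's set were compared per length of transcript. The 77 members above 1 CPM ran from 12.9 to 447 CPM per kb with a median of 156, although an assembled ribosome holds most of these proteins in equal number. Rpl19, Rpl9, Rps14 and Rpl41 were the highest, at 447, 442, 427 and 384 CPM per kb, and Rps6 was eighth at 309. Rpl22 was the fifth lowest at 49.8 and Rpl22l1 the seventh lowest at 58.0 CPM per kb, and the lowest, Rps20 and Rps15a at 12.9 and 21.7, had the longest annotated transcripts. A length that is longer than the transcript in use lowers such a value. Sequence shared with other genes, described below, may lower it too where reads are lost, and no correction was made. Windows found in no other gene made up 34.4% of Rpl22l1 and 94.8% of Rpl22, so their ranks are not compared.

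Ribosomal protein genes have many processed pseudogenes, so a read of 50 bases often fits elsewhere. A median of 46.6% of the 50-base windows of a member's transcript occurred in no transcript of another gene, with 22 members under 25% and 13 over 75%. Rpl22 was among the most distinct at 94.8%, and Rpl22l1 had 34.4% and Rps6 15.4%. Rps27 was the least distinct, with 4 of 296 windows (1.35%), and had 0.40 CPM, against 15 CPM for Rps27l (77.6%). Rpl30 (20.8%) and Rpl26 (28.7%), both parts of every large subunit, had 157 and 0 reads in all 12 libraries together. Rpl34 had 330 reads at 62.1% unique windows, so a low share did not go with every low count. Rpl9 had 326 CPM at 6.68%. Over the 82 members the share of unique windows and the CPM per kb had a Spearman's rho of -0.29, a value across genes that share libraries and annotation. The counts of Rps27, Rpl30, Rpl34 and Rpl26 are not read as levels, and the cause of their low counts was not tested. In 0 of 82 members did exons overlap those of another tested gene on the same strand.

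**Figure D5:**
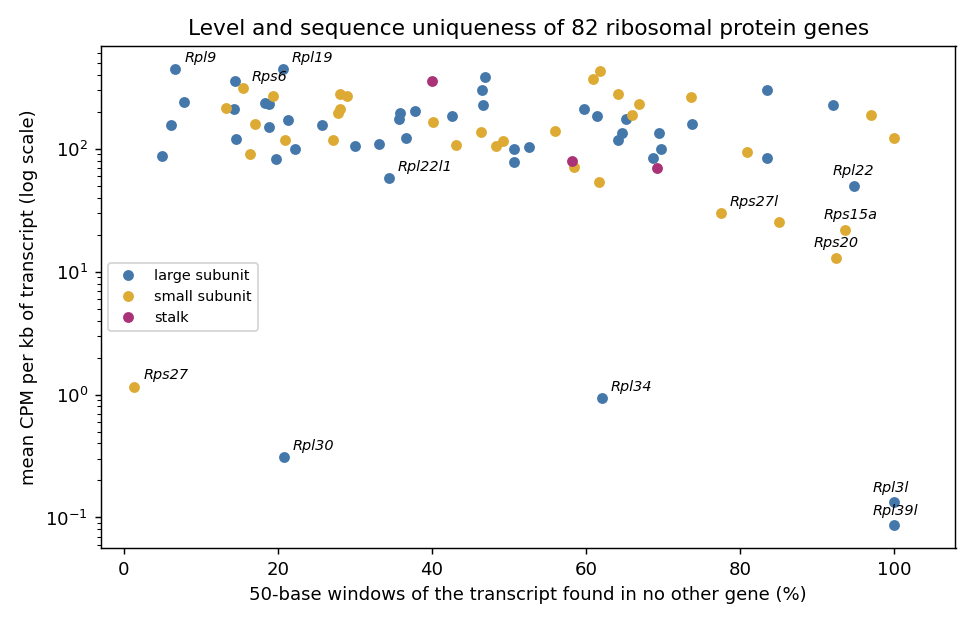
Mean CPM per kb of transcript (vertical axis, log scale) against the share of a transcript's 50-base windows found in no other gene (horizontal axis, percent) for the 82 members. Most lie between 12.9 and 447 CPM per kb at any share, with Rps27, Rpl30, Rpl34, Rpl3l and Rpl39l far below.

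Genotype differences were of like size at low and high shares. Members with under 25% of unique windows had a median log2 fold change of 0.047 (21 of 22 above 0), and those over 75% had 0.055 (12 of 13 above 0). Rps27, Rpl30 and Rpl34, the members with few reads that belong to the core ribosome, had log2 fold changes of 0.25 ± 0.51, -0.28 ± 0.60 and -0.22 ± 0.36, with ranges that overlapped.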

How the data were processed

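The authors sequenced stranded poly(A) libraries for 50 cycles from a single end, aligned the reads to mm10 with TopHat2 2.1.1 and Bowtie2 2.2.8 using UCSC gene models, and counted those on the opposite strand of each gene with HTSeq 0.6.1p1 in union mode, so reads that fit several places or genes may be lost. The deposited counts of 24079 genes are raw whole numbers without normalization. Libraries were grouped by genotype from their titles. Genes that reached 15 reads in total were tested with edgeR 4.0.16 in R 4.3.3 (TMM, quasi-likelihood fit, no covariate, Benjamini-Hochberg adjustment over 17823 genes, threshold 0.05), after a test on simulated data. Log2 CPM used a prior count of 2. Levels rest on 39400980 to 65565479 reads per library. That the pools are biological replicates is stated by the study, so p-values measure the spread between pools.

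The members and lists were chosen with earlier results of these data known. Named members are Rpl22, Rpl22l1, Rps6, Rpsa, the stalk proteins, paralog pairs, those with the smallest p in each direction and the highest and lowest CPM. Others are named as such. Transcript lengths and 50-base windows are from GENCODE M21, 1 RefSeq-linked transcript a gene, and 93.2% of tested genes had a length. Gene coordinates and start windows are from RefSeq (GRCm38.p6), of the same build as mm10, and 61 members were matched there to a start. Tools tried as alternatives were DESeq2 1.42.0 and limma 3.58.1 voom, with other scalings and filters, a replicate block, each library left out and, added after the data were seen, removal of the length trend. The values of 1 gene are not reported here.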

Additional observations from a re-analysis of the deposited data

Results flagged for a closer look

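Among 58 groups of 6 libraries searched for a library that stands apart, 2 were found, where 2.9 would be found by chance at 1 in 20. Rpl39l, a paralog of Rpl39 known from testis, was at 0.301 CPM in Fmr1-/y replicate 6 and at 0 to 0.0185 CPM in the other Fmr1-/y libraries, a gap of 0.939 of the group's range. Wild-type libraries reached 0.24 CPM, so the high library does not lie far above them. Rplp2, a protein of the stalk, was at 49.7 CPM in Fmr1-/y replicate 4 and at 64.2 to 72.0 CPM in the other Fmr1-/y libraries, a gap of 0.651 of the range. That library was also the lowest for the members' mean (-0.20 on the log2 scale). Without it the log2 fold change of Rplp2 was 0.02 in place of -0.05.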

How the results depend on the processing

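No alternative moved a member past an adjusted p of 0.05, and the smallest adjusted p of a named member in any of them was 0.335. The number of members higher in Fmr1-/y libraries at an unadjusted p under 0.05 was 1, and it was 0 with DESeq2 size factors and with limma voom, 2 without scaling and 2 with the length trend removed. It ranged from 0 to 4 with each library left out, with 4 (Rpl22l1, Rplp0, Rps27l and Rps4x) without wild-type replicate 1 and 3 without Fmr1-/y replicate 4. Members lower at that threshold ranged from 0 to 1, the 1 being Rpl39l without Fmr1-/y replicate 6. The members' median of 0.050 ranged from 0.014 to 0.085 over the left-out libraries, lowest without wild-type replicate 2, when 56 of 82 were above 0, and highest without wild-type replicate 1. Deviations of same-numbered libraries correlated at -0.08 to 0.09 over all genes and at -0.35 to 0.47 above 8 CPM, so the numbers were not taken as pairs. The replicate block gave a median of 0.052, 0 members after adjustment and 1 before, and changed no call.

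Of 28 named members, 18 kept their sign in all alternatives, Rpl22 among them with 0.02 to 0.09. The sign turned for 10 whose values lie near 0 or rest on few reads. With the length trend removed, values were -0.032 for Rpl19, -0.016 for Rpl36a, -0.021 for Rpl36al, -0.0062 for Rplp1, -0.020 for Rps3 and -0.032 for Rps4l. Without scaling they were 0.015 for Rpl29 and 0.023 for Rpl38. Rpl38 gave 0.00056 with scaling without the members and 0.00065 with filterByExpr, Rps4l -0.00069 with DESeq2 size factors and -0.00058 in DESeq2, and Rpl3l -0.14 in limma voom. Over the left-out libraries, ranges were -0.018 to 0.057 for Rpl19, -0.053 to 0.017 for Rpl29, -0.010 to 0.10 for Rpl36a, -0.013 to 0.085 for Rpl36al, -0.060 to 0.046 for Rpl38, -0.0011 to 0.091 for Rplp1, -0.089 to 0.026 for Rplp2, -0.023 to 0.034 for Rps3 and -0.072 to 0.12 for Rps4l. The 5 members under 1 CPM rest on few reads, with standard errors from 0.36 to 1.1.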
